A study of Mus musculus with 6 samples.

Results

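Endocannabinoid signalling runs on lipids that cells make from membrane phospholipids and break down soon after use, chiefly anandamide and 2-arachidonoylglycerol, which act on the cannabinoid receptors. Acetaminophen is tied to this system because its deacetylated product, aminophenol, can be joined to arachidonic acid by the amidase FAAH, and the resulting lipid activates the channel TRPV1 and slows the uptake of anandamide. In reproductive tissue the system is known from the balance of anandamide in the oviduct and uterus, and cannabinoid receptors have been described in germ cells of mice. The genes described here are 10 symbols chosen for these roles, the receptors Cnr1 and Cnr2 and the channel Trpv1, the synthetic enzymes Napepld, Dagla and Daglb, and the hydrolases Faah, Mgll, Abhd6 and Abhd12. Each symbol matched 1 identifier among the 48709 genes of the count table, and 9 of the 10 passed the filter on low counts, Trpv1 being the exception.

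RNA of 13.5 dpc (days post coitum) ovaries of CD1 embryos was sequenced from 3 control pools and 3 pools exposed to acetaminophen (APAP) and ibuprofen (IBU). Exposed dams received 30 mg/kg per day of APAP and 15 mg/kg per day of IBU by gavage from 10.5 to 13.5 dpc, with 4 alternating doses a day every 3 h, and control dams received the ethanol diluent on the same schedule. Both groups were wild type, each library held the gonads of several embryos from a pair of dams, and the drugs were given together, so effects of APAP and IBU cannot be told apart. In the sample titles the exposed pools carry only the name of IBU, and the exposure label gives APAP as well.

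Total counts ran from 37811968 to 48954631 per library, and values are CPM, counts scaled to the size of the library, after TMM scaling, which sets the bulk of genes level between libraries. The germ cell gene Ddx4 was at 191 to 268 CPM and the granulosa gene Foxl2 at 0.944 to 8.16 CPM, so both lineages were present in every library. Replicate 3 of both groups stood apart by liver genes, with Alb at 691 CPM in the control and 1265 CPM in the exposed library against 19.5 to 105 CPM elsewhere. Each of the 9 tested genes, and each other pathway gene called in either fit, is therefore given over all 6 libraries and for replicates 1 and 2 alone.

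The 3 receptor genes are shown first by the sequence before their start sites, since they include the tested gene with the largest fold change and the 2 genes of lowest level per length. The 250 bases upstream of the most 5′ RefSeq start on GRCm38.p6 are printed 5′ to 3′, with each CG pair in capitals, at chr4:33924014-33924263 for Cnr1, chr4:135894939-135895188 for Cnr2 and chr11:73233899-73234148 for Trpv1, all on the plus strand.
Cnr1: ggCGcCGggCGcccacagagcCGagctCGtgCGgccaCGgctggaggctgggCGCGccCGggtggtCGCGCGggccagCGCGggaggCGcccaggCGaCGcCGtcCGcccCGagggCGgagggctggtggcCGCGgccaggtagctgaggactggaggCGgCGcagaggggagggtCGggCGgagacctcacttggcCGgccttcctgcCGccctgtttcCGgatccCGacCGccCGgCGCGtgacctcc
Cnr2: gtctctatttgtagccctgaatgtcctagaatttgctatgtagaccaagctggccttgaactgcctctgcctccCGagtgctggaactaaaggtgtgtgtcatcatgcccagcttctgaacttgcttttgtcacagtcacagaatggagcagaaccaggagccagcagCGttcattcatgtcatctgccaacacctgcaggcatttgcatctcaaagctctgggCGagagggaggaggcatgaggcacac
Trpv1: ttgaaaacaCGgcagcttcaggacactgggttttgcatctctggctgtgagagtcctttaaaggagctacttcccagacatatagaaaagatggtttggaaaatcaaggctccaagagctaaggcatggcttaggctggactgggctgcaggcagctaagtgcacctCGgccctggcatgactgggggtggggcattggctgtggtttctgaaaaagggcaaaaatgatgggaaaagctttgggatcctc
The Cnr1 window held 36 CG pairs, a number reached by 2.58% of the 32851 windows of this length in the RefSeq table. The Cnr2 window held 3 and the Trpv1 window 2, against a median of 6 over all windows. RefSeq windows were matched for 8 of the 10 genes, and none was listed for Dagla or Abhd12. In the most 5′ window the other genes had 21 CG pairs (Napepld), 9 (Daglb), 9 (Faah), 23 (Mgll) and 18 (Abhd6). Other starts are listed for Cnr1, Cnr2, Mgll and Abhd6, which makes 13 windows for the 8 genes. The windows of these other starts had 28 and 5 CG pairs for Cnr1, 3 for Cnr2, 40 for Mgll and 22 for Abhd6. The 5 of Cnr1 were reached by 55.6% of all windows and the 40 of Mgll by 1.31%. The GC box GGGCGG, searched on both strands, was in 4 of these 13 windows, the most 5′ window of Cnr1 and of Faah and the other window of Mgll and of Abhd6, beside 32.7% of all windows. These counts describe letters in the windows and were not tested against expression.

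Levels differed far more between the 10 genes than between the groups. On the scale of CPM per kilobase of exon, which allows genes of different length to be compared, Abhd12 was the most abundant, at 29.4 ± 4.48 in control and 26.3 ± 1.24 in APAP+IBU ovaries (SD, n = 3 each). ABHD12 is a serine hydrolase that acts on lysophosphatidylserine and on a small part of 2-arachidonoylglycerol. Abhd6, another hydrolase of 2-arachidonoylglycerol, followed at 7.83 ± 0.603 and 8.24 ± 0.78 CPM per kilobase (SD, n = 3). The range of Abhd6 over the 6 libraries lay wholly below that of Abhd12 and wholly above that of the next gene.

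Cnr1 and Napepld came next, and their ranges overlapped, from 2.36 to 5.53 CPM per kilobase for Cnr1 and from 2.86 to 3.78 for Napepld. Mgll, Dagla and Daglb formed a group whose neighbours overlapped, between 1.46 and 2.58 CPM per kilobase in all libraries. MGLL is the main hydrolase of 2-arachidonoylglycerol in brain, and the DAGL lipases make that lipid from diacylglycerol. Faah lay below them at 0.981 to 1.37 CPM per kilobase, Cnr2 at 0.336 to 0.614, and Trpv1 at 0 to 0.0428. None of these last ranges overlapped its neighbour.

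**Figure D1:**
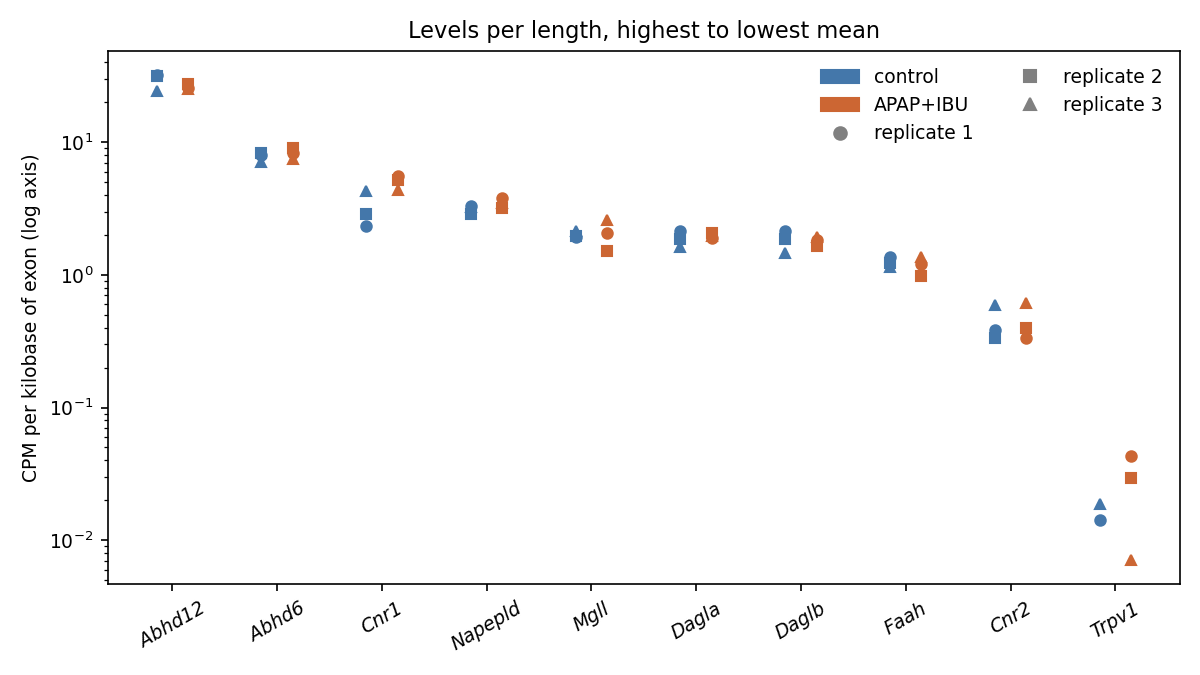
Level of each of the 10 genes in CPM per kilobase of exon on a log axis, with controls in blue, APAP+IBU in orange and the marker shape giving the replicate. Abhd12 lay between 24.2 and 32.2 and Trpv1 at or below 0.0428 in every library, and the 0 of Trpv1 in control replicate 2 cannot be drawn on this axis.

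Of the 9 tested genes, Cnr1, the G protein-coupled receptor for anandamide and 2-arachidonoylglycerol that is most abundant in brain, had the largest log2 fold change. Cnr1 (ENSMUSG00000044288) is annotated on GRCm38 at chromosome 4, 33924593 to 33948831, plus strand. Read level was 15.2, 18.5 and 27.5 CPM in control replicates 1, 2 and 3, and 35.6, 33.3 and 28.3 CPM in APAP+IBU replicates 1, 2 and 3. Every exposed library was thus above every control library, though the replicate 3 libraries were close together, with an exposed-to-control ratio of 1.03 against 2.05 for the means of replicates 1 and 2. Over all 6 libraries the mean was 20.4 ± 6.36 CPM in control and 32.4 ± 3.74 CPM in exposed ovaries (SD, n = 3), a log2 fold change of 0.67 (standard error 0.23, 95% interval 0.14 to 1.20) that did not pass adjustment over all genes (unadjusted p = 0.0194, adjusted p = 0.692, quasi-likelihood F test of edgeR, Benjamini-Hochberg method). The exact two-sided permutation test gave p = 0.1, the smallest that 3 libraries against 3 allow. With replicates 1 and 2 alone the log2 fold change reached 1.05 (standard error 0.14, edgeR adjusted p = 0.00632).

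Whether the difference in Cnr1 passed adjustment over all genes depended on control replicate 3, while its direction did not. Leaving out that single library gave a log2 fold change of 0.95 (adjusted p = 0.0389 in edgeR's test), whereas leaving out any other single library gave 0.49 to 0.73 with adjusted p from 0.417 to 0.999. Correction of each library for gene length and GC content lowered the log2 fold change of replicates 1 and 2 from 1.05 to 0.78 (adjusted p = 0.0109 in edgeR's test). Cnr1 had 579 to 1808 counts per library, so counting error was small beside the spread between libraries.

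Markers of cells that could carry Cnr1 were read beside it, as the summed CPM of lists. The 8 neuronal markers summed to 51.9, 67.7 and 68.8 CPM in controls and 30.8, 22.6 and 31.1 CPM after exposure, so all exposed libraries were lower where Cnr1 was higher, with none of the 8 at 0. Stmn2, a neuronal microtubule regulator, was at 7.03 to 11.2 CPM in controls and 4.44 to 5.47 CPM in exposed libraries. The 6 germ cell markers summed to 1271, 1195 and 1294 CPM in controls and 1362, 1496 and 1131 CPM after exposure, with overlapping groups. The sum joins genes that ran different ways. Dazl, an RNA-binding protein of germ cells, was at 368, 380 and 553 CPM in control and 587, 592 and 476 CPM in exposed replicates 1, 2 and 3, so that control replicate 3 lay within the exposed range, and it was the highest control for Dazl and for Cnr1. Sycp3, of the meiotic chromosome axis, was at 120, 156 and 117 CPM in control and 223, 280 and 106 CPM in exposed replicates. The pluripotency gene Pou5f1 was at 84.5 to 144 CPM in control and 57.5 to 108 CPM in exposed libraries, Dppa3 at 54.5 to 93.5 CPM and 36.3 to 60.4 CPM, and Stra8 at 208 to 333 CPM and 156 to 274 CPM, all with overlap. Markers of spermatids, cells of the adult testis, were at 34.9 to 131 CPM in controls and 1.59 to 5.15 CPM in exposed libraries, again lower where Cnr1 was higher. Supporting cell markers summed to 309 to 568 CPM in controls and 428 to 439 CPM after exposure. Stromal sums were 510 to 628 and 557 to 662 CPM, endothelial 379 to 465 and 345 to 385, and mesonephric 47.5 to 61.5 and 34.6 to 72.4. Groups overlapped in each of these lists. The stromal gene Pdgfra was at 174, 213 and 269 CPM in control and 276, 247 and 207 CPM in exposed replicates. Nr2f2 of the same list was at 120 to 136 and 99.5 to 123 CPM. The part of these cells in the Cnr1 values was not tested, and in pooled tissue a change in the number of cells and in RNA per cell cannot be told apart.

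Cnr2, the cannabinoid receptor of immune cells, was scarce. Cnr2 (ENSMUSG00000062585, chromosome 4, 135895394 to 135920207, plus strand) was at 1.52, 1.34 and 2.35 CPM in control replicates 1, 2 and 3 and at 1.34, 1.59 and 2.45 CPM in the exposed libraries, from 50 to 102 counts. Both replicate 3 libraries were the highest of their group, and the groups overlapped. The log2 fold change was 0.041 with a 95% interval from -0.76 to 0.84 (adjusted p = 0.971 in edgeR's test), which leaves a wide range of differences possible in either direction, and 0.056 (adjusted p = 0.913) with replicates 1 and 2. Both replicate 3 libraries also held the most liver RNA, with the 12 liver markers at 2013 CPM in the control and 3266 CPM in the exposed library against 190 to 550 CPM elsewhere. The 6 macrophage markers summed to 87.8 to 99.9 CPM in controls and 66.3 to 88.3 CPM after exposure. The sum was highest in replicate 3 of the exposed group and in replicate 2 of the controls, but its members ran different ways. Adgre1 was highest in both replicate 3 libraries, at 5.93, 7.50 and 9.56 CPM in control and 5.52, 5.61 and 9.45 CPM in exposed replicates. Mrc1 and Cx3cr1 were highest in replicate 3 of the controls only. Csf1r, Cd68 and C1qa were so in the exposed group only. The part of liver and macrophage RNA in the Cnr2 values was not tested. The ratio of Cnr1 to Cnr2 per kilobase was 6.17 to 8.54 in controls and 7.15 to 16.4 in exposed libraries.

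Trpv1, the capsaicin- and heat-gated channel of sensory neurons and the proposed end point of the acetaminophen metabolite, was at the edge of detection. Trpv1 (ENSMUSG00000005952, chromosome 11, 73234292 to 73261242, plus strand) had 2, 0 and 3 counts in control replicates 1, 2 and 3 and 8, 5 and 1 counts in the exposed libraries. The 0 counts in control replicate 2 allow a level of up to 0.0803 CPM, taking 3 counts as the limit and covering counting error only. The groups overlapped, and a difference was not detectable at this depth. When all 32782 genes with at least 1 count were tested, the adjusted p for Trpv1 was 0.748 (edgeR's test).

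**Figure D2:**
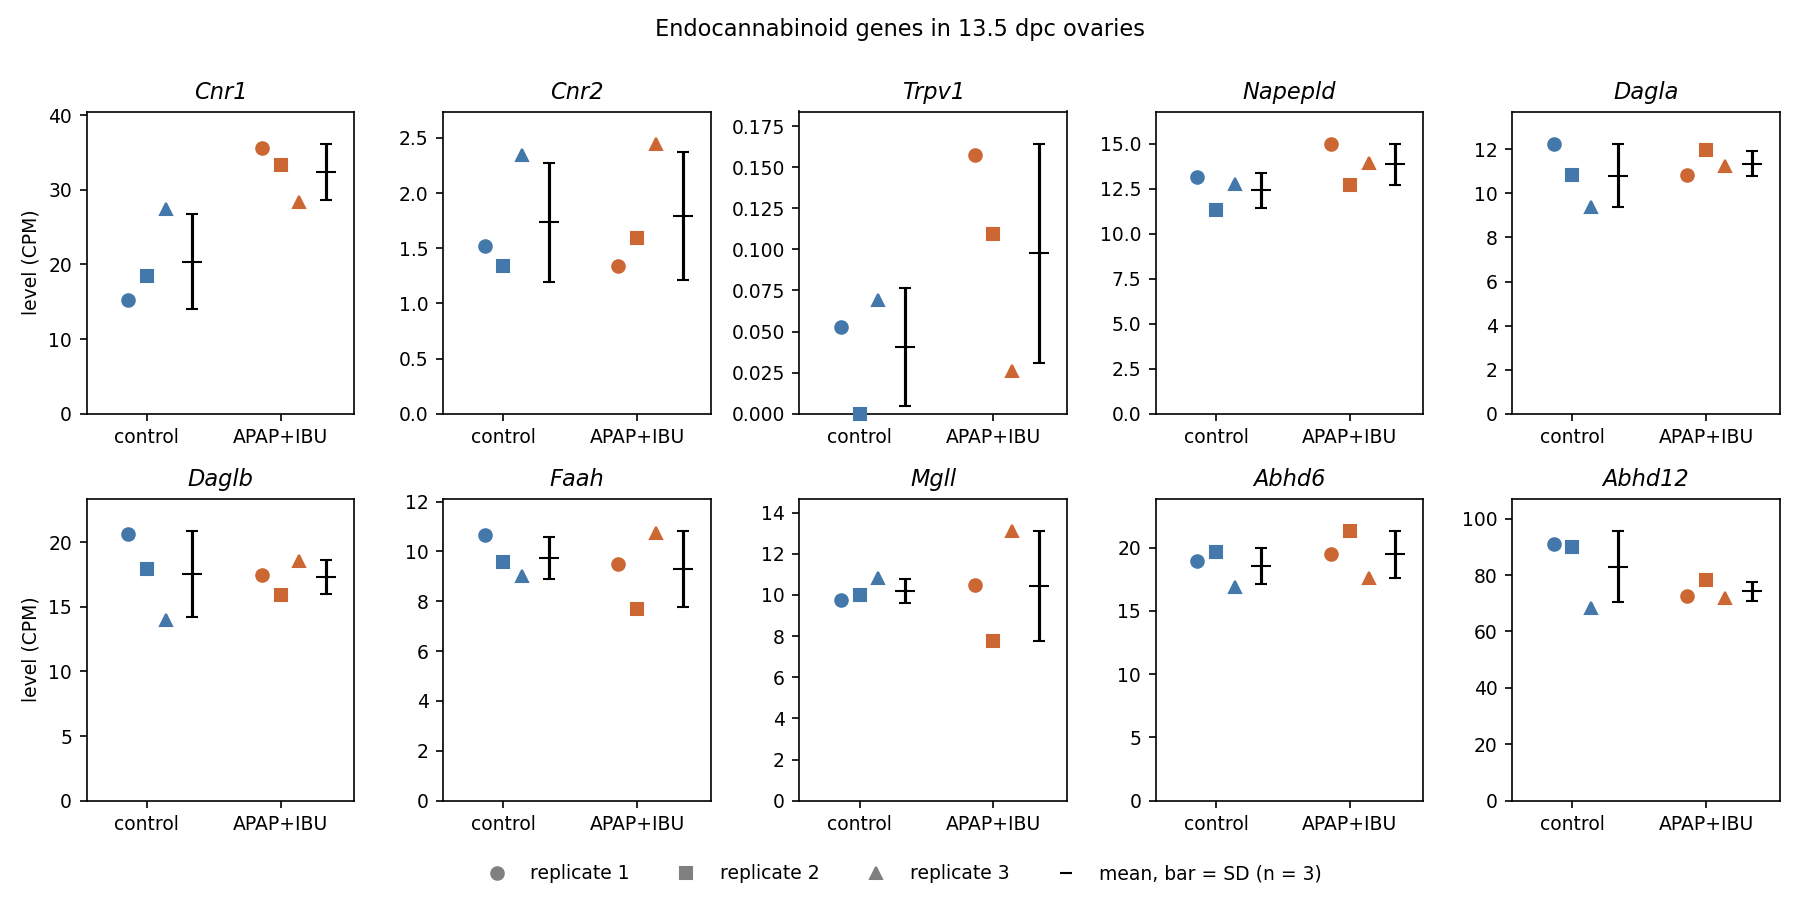
Level of the 10 genes in CPM in each of the 6 libraries, on linear axes from 0, with the mean and SD (n = 3) of each group in black and the marker shape giving the replicate. Only in the panel of Cnr1 do all exposed libraries lie above all control libraries, and in 9 panels the groups overlap.

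The enzymes that make endocannabinoids were at close levels in both groups. Napepld, the phospholipase that releases anandamide and other N-acylethanolamines (ENSMUSG00000044968, chromosome 5, 21662901 to 21701396, minus strand), was at 13.2, 11.3 and 12.8 CPM in control and 15.0, 12.7 and 13.9 CPM in APAP+IBU replicates 1, 2 and 3. Its log2 fold change was 0.16 (95% interval -0.21 to 0.53, adjusted p = 0.756 in edgeR's test), or 0.20 (adjusted p = 0.418) with replicates 1 and 2, and each exposed library exceeded the control library of the same number while the groups overlapped. Whether libraries of the same number form pairs is not stated, and this order was not tested by itself. With the replicate number as a block, the log2 fold change of Napepld was 0.16 (adjusted p = 0.913 in edgeR's test).

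Dagla, the diacylglycerol lipase best known from neurons (ENSMUSG00000035735, chromosome 19, 10245265 to 10304877, minus strand), was at 12.2, 10.8 and 9.37 CPM in control and 10.8, 12.0 and 11.2 CPM in exposed libraries. The group means of 10.8 ± 1.44 and 11.4 ± 0.58 CPM (SD, n = 3) differed by less than the spread within controls. Daglb, its relative known from macrophages (ENSMUSG00000039206, chromosome 5, 143464584 to 143505942, plus strand), was at 20.6, 17.97 and 13.98 CPM in control and 17.4, 15.9 and 18.6 CPM in exposed libraries. The log2 fold changes were 0.071 for Dagla (95% interval -0.33 to 0.47, edgeR adjusted p = 0.893) and -0.017 for Daglb (95% interval -0.44 to 0.41, adjusted p = 0.977), and with total counts in place of TMM the sign of Daglb turned to 0.022. With replicates 1 and 2 alone they were 0.0051 for Dagla (edgeR adjusted p = 0.985) and -0.19 for Daglb (adjusted p = 0.359). Of the exon bases of Daglb, 24.1% lie opposite exons of Rac1, which was at 252 to 311 CPM, and the strand setting of the counting is not given, so reads of the pair may not be told apart. Per kilobase, the ratio of Daglb to Dagla was 0.896 to 1.01 in controls and 0.799 to 0.993 after exposure.

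Among the hydrolases, Faah was the lowest per length and did not differ between the groups beyond their spread. FAAH breaks down anandamide and is the enzyme that makes the active lipid from the acetaminophen product. Faah (ENSMUSG00000034171, chromosome 4, 115967145 to 116017926, minus strand) was at 10.6, 9.59 and 9.01 CPM in control and 9.48, 7.69 and 10.7 CPM in APAP+IBU replicates 1, 2 and 3. Exposed libraries were thus both the lowest and the highest of the 6. The log2 fold change was -0.068 (95% interval -0.51 to 0.37, adjusted p = 0.910 in edgeR's test), and it was -0.21 (adjusted p = 0.43) with replicates 1 and 2 alone. The ratio of Napepld to Faah per kilobase, a maker of anandamide over its breaker, was 2.45, 2.34 and 2.81 for control and 3.12, 3.27 and 2.57 for exposed replicates, with overlapping groups.

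Mgll (ENSMUSG00000033174, chromosome 6, 88724412 to 88828360, plus strand) was at 9.73, 9.99 and 10.8 CPM in control and 10.5, 7.75 and 13.1 CPM in exposed replicates 1, 2 and 3. The exposed libraries spread more widely (SD 2.67 CPM) than the controls (SD 0.572 CPM) around almost the same mean, with a log2 fold change of 0.035 (95% interval -0.47 to 0.54, adjusted p = 0.960 in edgeR's test). Without APAP+IBU replicate 3 it was -0.18, and with replicates 1 and 2 alone -0.091 (edgeR adjusted p = 0.768). An antisense gene, Gm26588, lies opposite 3.29% of the exon bases of Mgll and was at 0.0873 to 0.348 CPM.

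Abhd6 (ENSMUSG00000025277, chromosome 14, 8002902 to 8056763, plus strand) varied least of all, with 19.0, 19.7 and 16.9 CPM in control and 19.5, 21.3 and 17.6 CPM in exposed libraries. Its log2 fold change was 0.074 (95% interval -0.28 to 0.42, adjusted p = 0.873 in edgeR's test), and 0.10 (adjusted p = 0.589) with replicates 1 and 2. Abhd12 (ENSMUSG00000032046, chromosome 2, 150832493 to 150904741, minus strand) was at 90.9, 89.8 and 68.5 CPM in control and 72.6, 78.2 and 71.8 CPM in exposed libraries. Control replicate 3 was the lowest of the 6 libraries, so the groups overlapped, with a log2 fold change of -0.16 (95% interval -0.49 to 0.16, adjusted p = 0.724). With replicates 1 and 2 alone it was -0.24 (adjusted p = 0.0824 in edgeR's test), and after correction for length and GC content 0.034 (adjusted p = 0.825).

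**Figure D3:**
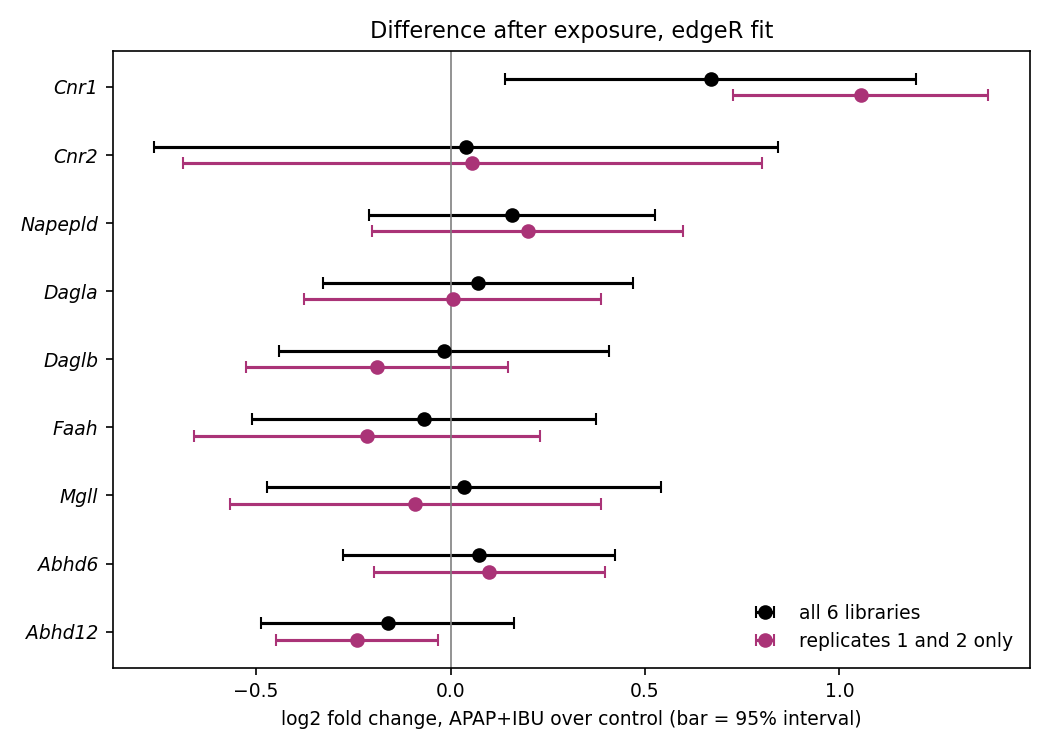
Log2 fold change of APAP+IBU over control ovaries for the 9 tested genes, with 95% intervals from edgeR's fit to all 6 libraries (black) and to replicates 1 and 2 (purple). The interval of Cnr1 lies above 0 in both fits, from 0.14 to 1.20 and from 0.73 to 1.38, while the other 8 genes include 0 over the 6 libraries. With replicates 1 and 2 the interval of Abhd12 lies below 0, from -0.45 to -0.033. After correction for length and GC content, not drawn here, its log2 fold change in these replicates was 0.034.

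Counted together, 0 of the 9 tested genes had an adjusted p under 0.05 over the 6 libraries in edgeR's test, as did 0% of the 20167 genes tested, and DESeq2 without shrinkage called 0 of the 9, beside 0.953% of all genes. At an unadjusted p under 0.05 there was 1 of 9, Cnr1, beside 6.22% of all genes. Cnr1 was also the 1 gene with all exposed libraries above all controls, beside 4.78% of all tested genes, and 0 of 9 lay wholly below, beside 5.92%. With replicates 1 and 2 alone, 1 of 9 was called higher, beside 14.2% of 20633 tested genes, and 0 were called lower, beside 12.9%. The median log2 fold change of the 9 genes was 0.041 over the 6 libraries, against -0.0047 for all genes. With 9 genes tested, a single gene is too few to set their share apart from these backgrounds.

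For the 3 tested genes that varied most between libraries, the genes with the most similar profile were sought among 10980 genes of at least 10 CPM on average. The measure was the root mean square difference of centred log2 CPM over the 6 libraries. The nearest to Cnr1 were Gm13212 (0.0574), Hectd2 (0.0588) and Dclre1c (0.0597). Hectd2 was at 7.27, 9.64 and 13.6 CPM in controls and 19.1, 17.4 and 13.8 CPM in exposed libraries, the same course as Cnr1 with a control replicate 3 close to the exposed one. The nearest to Cnr2 were Abcc4 (0.0891), Enpp3 (0.0963) and Rrm2 (0.102), all highest in both replicate 3 libraries. The nearest to Mgll were B2m (0.0665), Tedc2 (0.0682) and Dusp6 (0.0787).

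A wider list of 37 genes of the same pathway was read from the same fit, covering other receptors, G protein partners, other synthetic routes, carriers and Aadac, which deacetylates drugs. Of these, 34 were tested and 0 had an adjusted p under 0.05 over the 6 libraries in edgeR's test, while DESeq2 without shrinkage called 1, Plaat5, beside 0.953% of all genes. At an unadjusted p under 0.05 there were 2, Ppara (higher) and Plaat5 (lower), beside 6.22% of all genes. With replicates 1 and 2 alone, 3 of 34 were called higher, beside 14.2% of all genes, 5 were called lower, beside 12.9%, and 26 did not pass. Over the tested list, log2 fold changes had a median of -0.010 over the 6 libraries and 0.0044 for replicates 1 and 2.

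Among the other receptors, Ppara, the nuclear receptor for fatty acids and N-acylethanolamines, was at 4.35, 3.86 and 7.69 CPM in controls and 7.41, 8.49 and 10.2 CPM in exposed libraries. Only control replicate 3 reached the exposed range. The log2 fold change was 0.71 (standard error 0.30, edgeR adjusted p = 0.692) over the 6 libraries and 0.97 (adjusted p = 0.0152) with replicates 1 and 2. Gpr55, a receptor for lysophosphatidylinositol with affinity for cannabinoids, was at 6.97 to 9.72 CPM with overlapping groups. Of the channels, Trpa1, Trpv2, Trpv3 and Trpv4 stayed at or below 3.83 CPM. Gpr119 had 0 counts in every library, which allows a level of up to 0.0591 to 0.0803 CPM by library, taking 3 counts as the limit. Gpr18 had at most 1 count, or 0.0268 CPM, and was at the edge of detection.

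The G protein subunit Gnai2, through which cannabinoid receptors lower cyclic AMP, was at 292, 274 and 187 CPM in controls and 217, 229 and 238 CPM in exposed libraries. It was called lower with replicates 1 and 2 (log2 fold change -0.32, adjusted p = 0.0350 in edgeR's test) and not over the 6 libraries (-0.14, adjusted p = 0.792), and control replicate 3 was the lowest of all 6 libraries. Plcb4, a phospholipase C that supplies diacylglycerol, was at 16.5, 18.7 and 28.9 CPM in controls and 27.3, 27.6 and 22.3 CPM after exposure. It was called higher with replicates 1 and 2 (log2 fold change 0.66, adjusted p = 0.0120) and not over all 6 libraries (0.27, adjusted p = 0.722).

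Among the 9 alternative makers of N-acylethanolamines, 1 was called higher with replicates 1 and 2, beside 14.2% of all genes, and 2 lower, beside 12.9%. Pla2g4e, the calcium-dependent N-acyltransferase that forms the precursor on which NAPE-PLD acts, was at 6.69, 7.34 and 7.42 CPM in controls and 9.996, 12.1 and 6.87 CPM in exposed libraries, and was called higher with replicates 1 and 2 (log2 fold change 0.67, adjusted p = 0.0345 in edgeR's test) and not over the 6 libraries (0.43, adjusted p = 0.692). Exposed replicate 3 lay within the control range. Gde1, a glycerophosphodiesterase of a second route, was at 55.8, 54.2 and 44.5 CPM in controls and 40.0, 38.7 and 45.3 CPM in exposed libraries. It was called lower with replicates 1 and 2 (log2 fold change -0.46, adjusted p = 0.0153) and had an adjusted p of 0.692 over the 6.

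Plaat5, a calcium-independent N-acyltransferase known from testis, showed the largest difference of the list. It had 155, 37 and 50 counts (4.07, 0.991 and 1.15 CPM) in controls and 12, 4 and 1 counts (0.237, 0.0873 and 0.0260 CPM) in exposed libraries, with no overlap. The log2 fold change was -4.05 (standard error 0.81, edgeR adjusted p = 0.181) over the 6 libraries and -3.90 (adjusted p = 0.0142) with replicates 1 and 2. DESeq2 over the 6 libraries gave -4.10 (adjusted p = 5.93e-05) without shrinkage and -0.90 (adjusted p = 0.00225) with the beta prior, which pulls fold changes toward 0. The spermatid markers ran the same way, with 131, 38.7 and 34.9 CPM in controls and 5.15, 1.59 and 2.50 CPM after exposure, among them the protamine gene Prm1 at 35.9, 7.66 and 5.71 CPM against 0.197 to 0.789 CPM. Smcp, another of them, was at 2.42 to 6.87 CPM in controls and 0.118 to 0.182 CPM in exposed libraries. The part of such RNA in the Plaat5 values was not tested.

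**Figure D4:**
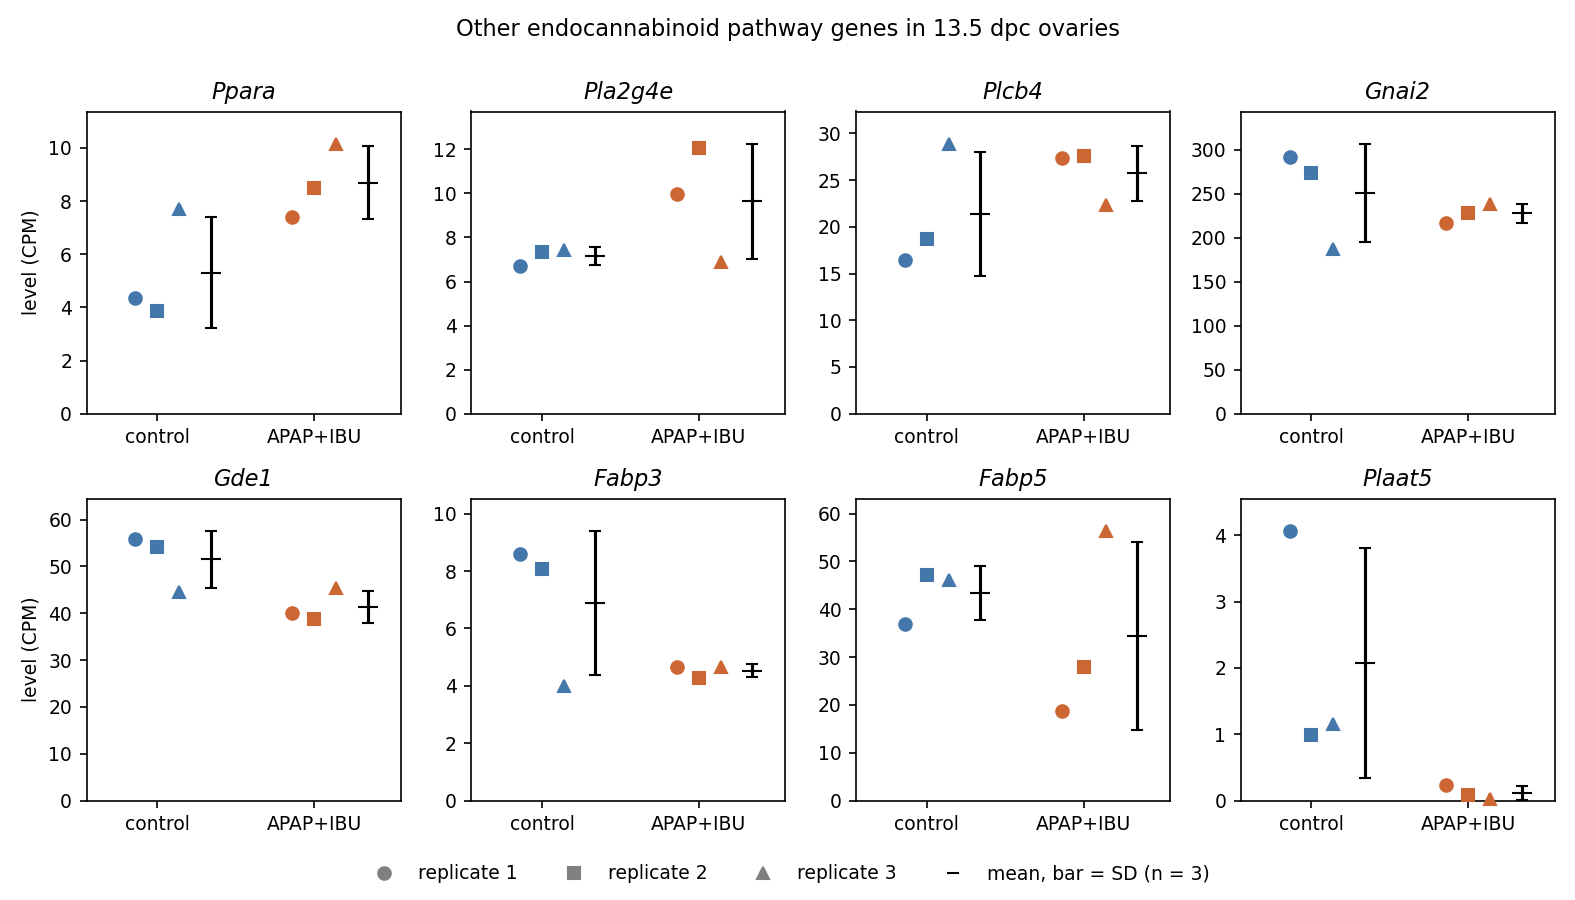
Level in CPM, on linear axes from 0, of the 8 other pathway genes called with replicates 1 and 2, with the mean and SD (n = 3) of each group in black and the marker shape giving the replicate. The replicate 3 libraries (triangles) lie in the opposite order to replicates 1 and 2 for Pla2g4e, Plcb4, Gnai2, Gde1, Fabp3 and Fabp5. For Gde1 they differ little, at 44.5 CPM in control and 45.3 CPM in exposed replicate 3. Over all 6 libraries the log2 fold changes of these genes kept the sign of replicates 1 and 2, from -0.61 for Fabp3 to 0.43 for Pla2g4e. Plaat5 shows no overlap.

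The fatty acid-binding proteins, which carry anandamide inside cells, included 2 of the 5 pathway genes called lower with replicates 1 and 2. Fabp3 was at 8.60, 8.06 and 4.01 CPM in controls and 4.65, 4.26 and 4.66 CPM in exposed libraries (log2 fold change -0.88, adjusted p = 0.0178 with replicates 1 and 2 in edgeR's test, and -0.61, adjusted p = 0.692, over all 6). Fabp5 was at 36.9, 47.2 and 46.0 CPM in controls and 18.7, 27.9 and 56.4 CPM in exposed libraries (log2 fold change -0.83, edgeR adjusted p = 0.0237 with replicates 1 and 2, and -0.34, adjusted p = 0.764, over all 6). In each of them the replicate 3 libraries ran against the others, with the exposed library higher than the control. Fabp7 was at 3.56 to 4.68 CPM in controls and 2.66 to 3.20 CPM in exposed libraries without overlap, yet did not pass adjustment over the 6 libraries (log2 fold change -0.47, adjusted p = 0.692). Scp2, a sterol carrier protein that also binds endocannabinoids, was at 100 to 121 CPM in controls and 92.4 to 104 CPM in exposed libraries.

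In 2 of the 34 tested genes all exposed libraries lay above all controls, beside 4.78% of all genes, and in 2 below, beside 5.92%. The higher ones were Abhd4, a lipase of the N-acylethanolamine route (99.7 to 114 CPM against 114 to 118 CPM), named after its values were seen, and Gdpd3, a lysophospholipase D (2.23 to 2.54 CPM against 2.97 to 3.60 CPM). The lower ones were Plaat5 and Fabp7. The remaining named genes overlapped, with log2 fold changes over the 6 libraries of -0.72 for Plaat1, -0.24 for Plaat3 and -0.18 for Naaa, the lysosomal amidase of N-acylethanolamines, and adjusted p from 0.692 to 0.725. Aadac, with overlapping groups, was at 6.24 CPM in control and 9.86 CPM in exposed replicate 3 against 0.341 to 1.35 CPM elsewhere, beside the liver markers given above.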

How the data were processed

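Polyadenylated RNA of 3 control and 3 APAP+IBU pools of 13.5 dpc ovaries was sequenced from stranded libraries. The authors mapped reads to mm10 with TopHat2 2.0.14 and Bowtie2 2.1.0, counted them with HTSeq 0.6.1 on Ensembl release 86 and deposited raw counts per gene, per the methods and the submitters' processing notes. The strand setting of the counting is not given in the sources used here.

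Symbols, positions and exon lengths came from GENCODE M21 on GRCm38, the assembly of mm10. The study's methods used DESeq2, and here the main test on counts was edgeR 4.0.16 (R 4.3.3), the quasi-likelihood test with TMM scaling, the default expression filter and Benjamini-Hochberg adjustment over 20167 genes, with an adjusted p of 0.05 as the threshold. Standard errors were derived from the fold change and its F statistic. Log2 counts per library size (log2 CPM) used a prior count of 1. The alternative tool was DESeq2 1.42.0, and the length and GC correction was a loess fit with a span of 0.3 per library. Exact permutation tests were over libraries. The fits were also run on simulated counts with the same spread for every gene and no library set apart. That check does not cover a library that stands apart as replicate 3 does here.

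Groups were taken from the exposure label and replicate numbers from the titles. Over all tested genes, the deviations of libraries of the same number were not positively correlated (correlations of -0.069, -0.015 and -0.044). Liver genes were nonetheless high in both replicate 3 libraries. Whether libraries of the same number came from the same experiment is not stated in the sources used here. Pairing is therefore unsettled, and the main fit did not use it. Library pairs within a group differed by more than sampling noise (chi-square per degree of freedom 19.3 to 163), so none was counted as a duplicate. Named genes were the 10 members, the pathway genes called in either fit or among the 12 of smallest unadjusted p, the 3 nearest profiles of 3 members, and marker genes as checks. The members, lists and alternatives were chosen with earlier results of these data known. Prostaglandin, RT-qPCR and histology data were not analysed here.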

Additional observations from a re-analysis of the deposited data

How the results depend on the processing

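Cnr1 and Napepld stayed higher under all 19 alternatives, Cnr1 by 0.49 to 1.05 on the log2 scale. With all 6 libraries the genes called numbered 0 in edgeR, 192 with DESeq2 without shrinkage, 168 with DESeq2 and the beta prior, 120 with all genes of at least 1 count, 2 with the replicate block and 29 with the block and the length and GC correction, and 0 to 1064 with 1 library left out, the most without control replicate 3. Replicates 1 and 2 alone gave 5607, with the correction 3004 and with DESeq2 and the beta prior 5794. Of the 10 genes, 0 were called with 6 libraries, also with the replicate block, 0 to 1 with 1 library left out (1 without control replicate 3), and 1 (Cnr1) in each of the 3 fits to replicates 1 and 2. Of the pathway list, 1 was called with either form of DESeq2 and with all genes of at least 1 count, 0 with the replicate block, 0 to 3 with 1 library left out (3 without control replicate 3), and 8, 5 with the correction and 8 with DESeq2 for replicates 1 and 2. The cause of these shifts was not tested.

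Signs turned mainly where log2 fold changes were near 0, and also for Abhd12. With 1 library left out they ran from -0.27 to 0.32 for Cnr2, -0.021 to 0.17 for Dagla, -0.16 to 0.12 for Daglb, -0.21 to 0.043 for Faah, -0.18 to 0.20 for Mgll and -0.0048 to 0.12 for Abhd6. Total counts gave 0.022 for Daglb. Replicates 1 and 2 alone gave -0.091 for Mgll, and with DESeq2 and the beta prior -0.090 for Mgll and -0.0021 for Dagla. With the correction they gave 0.034 for Abhd12, against -0.24 without it. At 3 libraries a group, the 95% intervals of the tested genes other than Cnr1 and Cnr2 stayed within 0.54 of 0 on the log2 scale. Trpv1, Gpr119 and Gpr18 were limited by depth, and Trpv1, outside the filter, was fitted only with all genes of at least 1 count, at 1.23 (standard error 1.06). The replicate block changed no call for the 10 genes.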
